A study of Mus musculus with 7 samples.

Results

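The genes described here are 10 members of the fibroblast growth factor (FGF) and ERK pathway: the ligands Fgf4 and Fgf15, the receptor Fgfr1, the feedback inhibitors Spry2, Spry4 and Spred1, the phosphatases Dusp4 and Dusp6, and the ETS factors Etv4 and Etv5. They were taken by name from a deposited table of 20384 genes, by the RefSeq transcript of each row, and the row of highest mean was used where a gene had more than 1. All 10 were found, 9 of them as a single row; Fgfr1 had 3 rows. The study sequenced messenger RNA of E14, an established line of mouse embryonic stem cells, kept in 2i medium, which in its usual form holds them naive with inhibitors of MEK and of GSK3. Every library came from cells carrying the same cassette, in which GAVPO, a light-switched transcription factor, drives Brn2 (listed as Pou3f2) with a red fluorescent protein. The labels name LED light at 300 µW and 0, 2, 4, 6, 14, 24 or 48 h, the label order used below, for 1 library each and 7 in all; every time named is the label of 1 library. No library without the cassette, without light at a matched time, or with another medium is among those analysed here, so time in culture and time in light cannot be told apart.

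FGF ligands bind receptor tyrosine kinases such as Fgfr1, and the signal passes through Ras, Raf and MEK to the kinase ERK. ERK switches on its own restraints: Sprouty and Spred proteins act on the Ras and Raf steps, dual-specificity phosphatases remove the activating phosphates from ERK, and the PEA3 group of ETS factors, Etv4 and Etv5, is a widely used transcriptional readout. In mouse embryonic stem cells Fgf4 is the main autocrine FGF, and the signal pushes cells out of the naive state; a MEK inhibitor in 2i medium blocks it. Sox2 and Pou5f1 are known activators of Fgf4.

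Upstream sequence is shown for 3 members whose courses differed: Dusp6, which stood above its 0 h value in every later library, Spry2, which was high at 14 h, and Fgf4, the most abundant ligand. Each window is the 250 bases before the RefSeq start, 5′ to 3′ on the gene's strand, in build GRCm38.p6, which is not the mm9 build the reads were aligned to. Capitals mark GGAA or its reverse complement TTCC, the core that ETS factors bind.
Dusp6, chr10:99262981-99263230, plus strand: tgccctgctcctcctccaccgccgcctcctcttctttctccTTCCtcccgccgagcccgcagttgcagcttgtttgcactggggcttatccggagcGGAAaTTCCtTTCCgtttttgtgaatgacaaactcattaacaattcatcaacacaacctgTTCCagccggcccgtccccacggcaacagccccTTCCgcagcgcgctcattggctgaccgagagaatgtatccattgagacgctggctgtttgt
Spry2, chr14:105896820-105897069, minus strand: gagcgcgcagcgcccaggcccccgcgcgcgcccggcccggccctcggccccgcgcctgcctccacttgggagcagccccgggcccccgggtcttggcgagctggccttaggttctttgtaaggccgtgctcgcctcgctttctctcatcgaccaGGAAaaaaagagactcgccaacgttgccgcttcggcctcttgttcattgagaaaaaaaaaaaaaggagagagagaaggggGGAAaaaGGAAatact
Fgf4, chr7:144861136-144861385, plus strand: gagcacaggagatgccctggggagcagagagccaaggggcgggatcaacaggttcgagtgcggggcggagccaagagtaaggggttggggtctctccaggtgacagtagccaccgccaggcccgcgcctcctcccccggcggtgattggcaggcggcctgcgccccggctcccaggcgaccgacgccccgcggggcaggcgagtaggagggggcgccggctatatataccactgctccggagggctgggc
The Dusp6 window held 6 such cores, the Spry2 window 3 and the Fgf4 window 0. Over 32851 promoter windows of the same length 93.4% held at least 1, with a median of 3. The other windows found for members were 1 of Spred1, with 4 cores, and 2 of Etv5, with 0 and 4. The longer ETS word GGAAGT, read on both strands and always containing the core, was in 1 of the 6 member windows, the Etv5 start with 4 cores, against 19.7% of all windows. The POU octamer ATGCAAAT (1.60% of all windows) and the CRE word TGACGTCA (1.55%), on both strands, were in 0 of the 6. CCAAT on both strands was in 4 of the 6 (Dusp6, Fgf4 and both Etv5 starts) and in 33.8% of all windows. Such matches are letters in a window, not measured binding.

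Values are given on the scale of the deposited table, which behaves as reads per kilobase of genomic span, introns included, scaled to library depth; the read numbers beside them were recovered from the values and are approximate. The depth so recovered was 7.04 to 16.1 M reads per library. The summed value of 7 pluripotency markers lay between 364 (14 h) and 512 (2 h). The summed value of 5 neuronal markers was 6.89 at 0 h, 14.1 to 17.6 from 2 to 24 h and 48.5 at 48 h. Of these 5, 3 had at least 10 reads in at least 3 libraries, and Dcx was at 0 in at least 1 library. The 6 fibroblast or feeder markers summed to between 0.417 and 3.27, with Col1a1, Col3a1, Postn and Lum at 0 in at least 1 library, and the sums of 5 primitive endoderm and 4 mesoderm markers stayed at or below 1.38 and 1.78. Pou3f2, the induced gene, had values of 77.0, 36.9, 47.4, 96.2, 119, 41.3 and 7.19 in label order: the library labelled 0 h stood above those of 2, 4, 24 and 48 h, against what its label would give for a gene switched on by light. No source used here says whether these include reads of the cassette. Every direction below is therefore against the labelled time, in particular against the library labelled 0 h, and not against the level of Pou3f2. Libraries also differed in GC content: among the 246 genes with the highest GC content of 2459 with a mean of at least 5, the median log2 deviation from a gene's mean was -0.35 in the library labelled 0 h, against -0.11, -0.27 and 0.52 in those of 2, 4 and 48 h. Some ratios are therefore also given with each library's trend with GC content removed (log2, no pseudocount). This alternative was added after seeing the data, and ratios printed without it can shift as well.

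The clearest pattern was a low value in the library labelled 0 h for several direct ERK feedback genes, with the difference already in place at 2 h. Spry4, Dusp4, Dusp6, Etv4 and the ligand Fgf15 were each more than 2-fold higher at 2 h than at 0 h, between 2.28-fold for Etv4 and 11.7-fold for Fgf15, while Spry2, Spred1 and Fgfr1 were not higher. With the GC trend removed Etv4 was just under this fold at 2 h (0.93 on the log2 scale) and the other 4 stayed above it. After 2 h the courses parted: Spry4 and Dusp6 remained above their 0 h value in all later libraries, whereas the counting interval of the ratio included 1 for Fgf15 at 6 and 14 h, for Dusp4 at 14 and 24 h and for Etv4 at 48 h. No member passed the test for a trend with time, in which 0.296% of genes rose and 0.0623% fell. The neuronal marker sum was also lowest in the library labelled 0 h, as was the mesoderm marker sum (0.709, and at most 1.78 later). Their part in these differences was not tested. In such bulk samples, fewer cells of a type and less RNA per cell cannot be told apart. Each time point is 1 library, so a ratio of libraries has no replicate check, and the intervals given with ratios (95%, exact, from the 2 read numbers) cover counting error only; reads without molecular identifiers are not independent molecules.

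**Figure D1:**
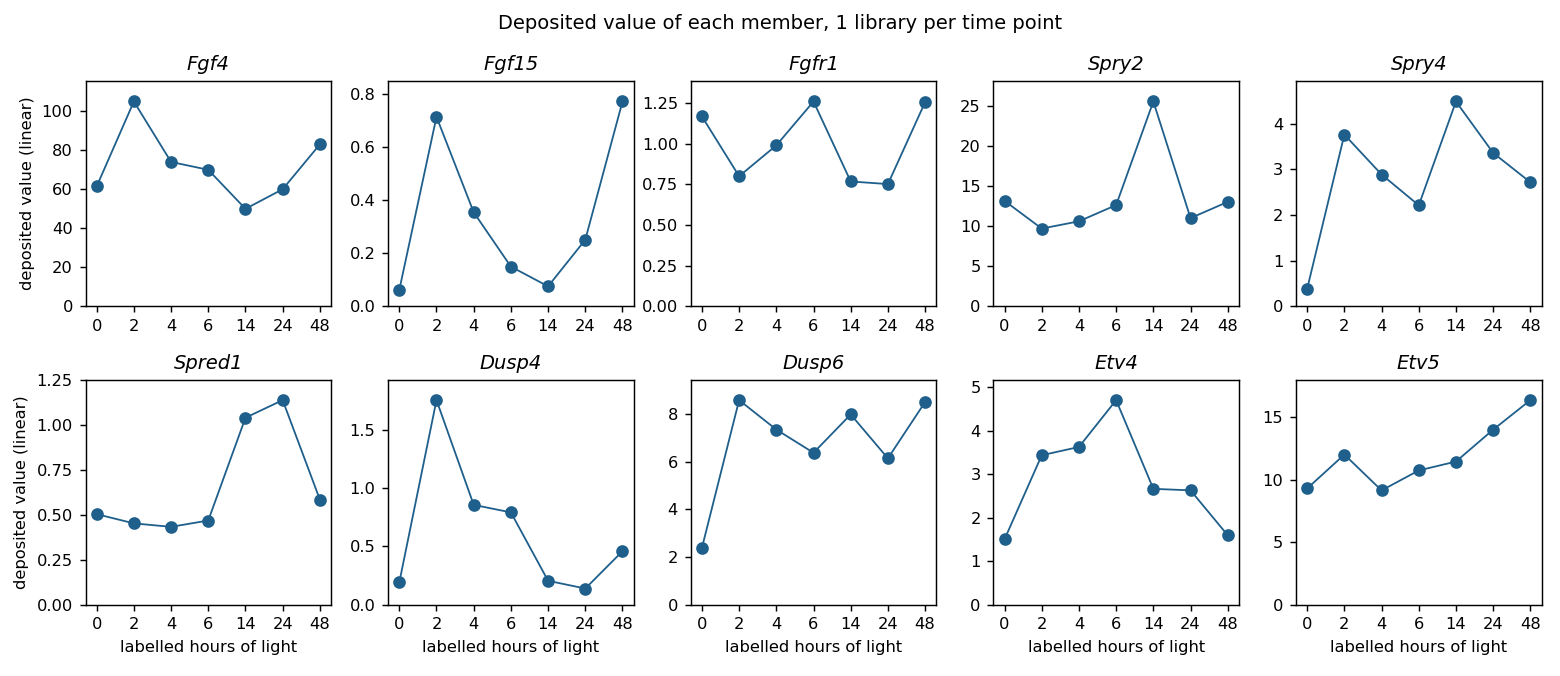
Deposited value (linear axis from 0) of each of the 10 members in the 7 libraries, by labelled hours of light; each point is 1 library and lines only join them. Spry4, Dusp6, Etv4 and Fgf15 have their lowest point at 0 h, Spry2 stands out at 14 h (25.6), and Etv5 has its highest at 48 h (16.4).

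Among the ligands, Fgf4 was abundant in every library. Its value was 61.3, 105, 73.9, 69.8, 49.8, 59.9 and 82.8 in label order. It was highest at 2 h and lowest at 14 h, with no steady course. The value at 2 h was 1.71-fold that at 0 h (1.63 to 1.79), and at 48 h 1.35-fold (1.29 to 1.41). Over 0 to 48 h the fitted log2 change was -0.12 ± 0.39 (SE; adjusted p = 0.871 by limma).

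Fgf15, a ligand of the endocrine FGF subfamily that is expressed in the developing nervous system, lies beside Fgf4 in the genome and was far lower. Its value was 0.0608, 0.713, 0.354, 0.149, 0.0746, 0.250 and 0.771 in label order. These rest on about 4, 24, 11, 9, 3, 11 and 55 reads in the same order. The course had 2 high points, at 2 h and at 48 h, with low values at 0 h and 14 h. The ratio to 0 h was 11.7 at 2 h (4.04 to 46.6) and 12.7 at 48 h (4.68 to 48.2), wide intervals because only 4 reads stand at 0 h. At 6 h the ratio was 2.45 (0.683 to 10.9) and at 14 h 1.22 (0.179 to 7.24), both with intervals that include 1. Fgf15 overlaps 2 antisense transcripts, Gm26793 and Gm39119, and no source used here says whether counting used strand, so its reads cannot be told apart from theirs. On reads its fitted change was 1.97 ± 1.19 (SE; adjusted p = 0.327 by limma-voom); it was 0.41 without the library labelled 0 h and 0.70 without that of 48 h.

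Fgfr1, the FGF receptor, showed a narrow range. Its value was 1.17, 0.800, 0.990, 1.26, 0.768, 0.751 and 1.26 in label order. Its 0 h value lay inside the range of the later libraries as deposited, but with the GC trend removed all 6 log2 ratios to 0 h were negative, from -0.33 at 6 h to -0.90 at 14 h, which made 0 h the highest. The lowest ratio to 0 h was 0.643 at 24 h (0.573 to 0.722) and the highest 1.08 at 6 h (0.986 to 1.18). Its fitted change on reads was -0.11 ± 0.39 (SE; adjusted p = 0.884 by limma-voom). The gene overlaps the antisense transcript Gm16159.

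Of the Sprouty and Spred inhibitors, Spry4 differed most between the 0 h library and the rest. Spry4 stood at 0.381, 3.76, 2.89, 2.21, 4.49, 3.36 and 2.72 in label order, on about 85 reads in the first library and 307 to 660 in each later one. The 0 h value was below every later one, by a wide gap. The ratio to 0 h was 9.92 at 2 h (7.85 to 12.7), its lowest 5.82 at 6 h (4.61 to 7.43) and its highest 11.8 at 14 h (9.43 to 15.04). Spry4 overlaps 2 small RNA genes of the opposite strand, Gm27369 and Gm27804.

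Spry2, another Sprouty, followed a different course. It was 13.2, 9.70, 10.6, 12.6, 25.6, 11.01 and 13.0 in label order. Apart from 14 h, all its values lay between 9.70 and 13.2. At 14 h it was 1.94-fold its 0 h value (1.78 to 2.12), in the library that also held the highest Spry4 and Pou3f2. At 2 h it was 0.735-fold (0.649 to 0.831), on the other side of 1 from Spry4.

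Spred1, an EVH1-domain relative of the Sproutys that holds Ras signalling in check through neurofibromin, stood apart again. It was 0.505, 0.454, 0.434 and 0.470 at 0, 2, 4 and 6 h, then 1.04 at 14 h, 1.14 at 24 h and 0.586 at 48 h. The 2 high libraries were 14 and 24 h, at 2.06-fold (1.82 to 2.34) and 2.26-fold (2.01 to 2.55) its 0 h value. At 48 h it was 1.16-fold (1.03 to 1.32). This course depended on GC content: without that trend the log2 ratio at 48 h was 1.11 in place of 0.22, beside 1.46 at 14 h and 1.22 at 24 h.

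The phosphatases Dusp4 and Dusp6 were both high at 2 h and differed later. Dusp6, a cytoplasmic phosphatase specific to ERK, was 2.38, 8.57, 7.34, 6.37, 7.97, 6.13 and 8.49 in label order. Its later values clustered between 6.13 and 8.57, well above that at 0 h, on about 151 reads in the first library and 220 to 582 in each later one. The ratio to 0 h lay between 2.57 at 24 h (2.09 to 3.16) and 3.59 at 2 h (2.93 to 4.41).

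Dusp4, a nuclear phosphatase, was 0.191, 1.75, 0.855, 0.791, 0.206, 0.139 and 0.459 in label order, on about 35, 163, 74, 133, 23, 17 and 91 reads. It was high at 2, 4 and 6 h and low at 0, 14 and 24 h, with 48 h between these. Its ratio to the first library lay between 9.12 (6.30 to 13.5) and 4.13 (2.83 to 6.18) for the labels 2 to 6 h, and was 1.07 (0.606 to 1.87) for 14 h, 0.725 (0.381 to 1.33) for 24 h and 2.40 (1.61 to 3.65) for 48 h. Removing the GC trend took its log2 ratio at 48 h from 1.26 to 0.63, under 2-fold, and at 14 h from 0.10 to -0.22. At 14 h, where Dusp4 was low, Spry4 was at its highest.

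**Figure D2:**
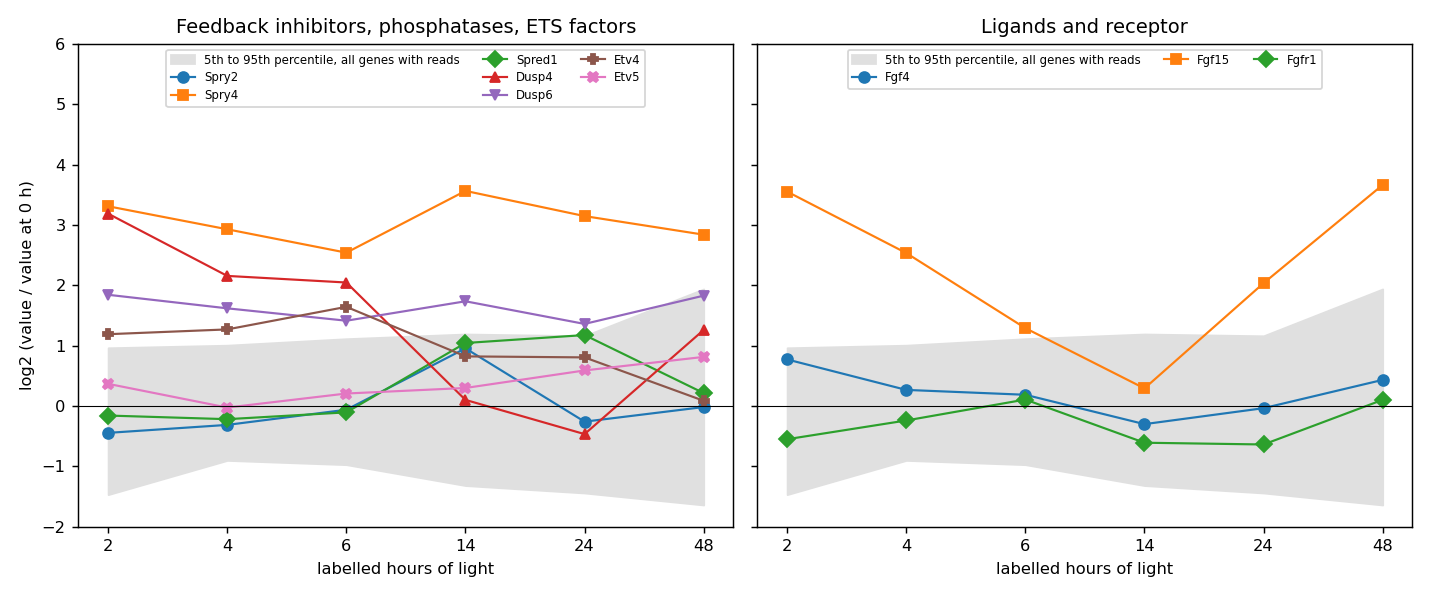
Log2 ratio of each later library to the 0 h library, with no pseudocount, for the 7 feedback members (left) and the ligands and receptor (right); each point is 1 library, and the grey band spans the 5th to the 95th percentile of all 13404 genes with enough reads. Spry4 lies above the band at every time, Dusp6 at every time but 48 h, Dusp4 and Etv4 at 2, 4 and 6 h, and Spred1 at 24 h, by a narrow margin. Fgf15 is above it at every time but 14 h.

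The ETS factors Etv4 and Etv5 had their highest values at different times. Etv4 was 1.51, 3.44, 3.63, 4.71, 2.67, 2.63 and 1.60 in label order. It was highest at 6 h and lowest at the 2 ends of the series. Its ratio to 0 h was 2.28 (1.97 to 2.64) in the library labelled 2 h, 3.13 (2.77 to 3.54) in that of 6 h and 1.06 (0.918 to 1.23) in that of 48 h. After removal of the GC trend the ratio at 6 h was 1.07 in place of 1.64 (log2), and at 48 h -0.79 in place of 0.09, which put 48 h below 0 h.

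Etv5 was 9.30, 12.01, 9.14, 10.7, 11.5, 14.0 and 16.4 in label order. The 24 and 48 h libraries were the highest, and 0 and 4 h the lowest. The ratio to 0 h was 1.29 at 2 h (1.25 to 1.34), 0.983 at 4 h (0.946 to 1.02) and 1.76 at 48 h (1.71 to 1.81). Etv5 was the best counted member, with 3757 to 15375 reads per library, so its intervals are narrow; they leave out the spread between cultures, which was not measured.

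Levels of different genes can be set side by side only per length of transcript. Per kilobase of spliced transcript, scaled to depth, Etv5 had the highest mean level (174 over 7 libraries, 134.4 to 240.4), followed by Fgf4 (91.4, 63.5 to 133.5), whose range ended just under that of Etv5. Spry2 (31.9, 22.7 to 59.7), Etv4 (19.2, 10.04 to 31.4), Fgfr1 (11.3, 8.52 to 14.3), Dusp6 (10.3, 3.63 to 13.1), Spry4 (8.99, 1.21 to 14.3) and Spred1 (6.70, 4.40 to 11.5) followed. Dusp4 (2.81, 0.623 to 7.86) and Fgf15 (0.828, 0.149 to 1.88) were lowest. From Spry2 down, the range of each gene overlapped that of the next, while Spry2 lay wholly below Fgf4. No source used here says whether reads over introns were counted. If they were, these levels are upper estimates for genes with long introns such as Etv5, Fgfr1 and Spred1.

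**Figure D3:**
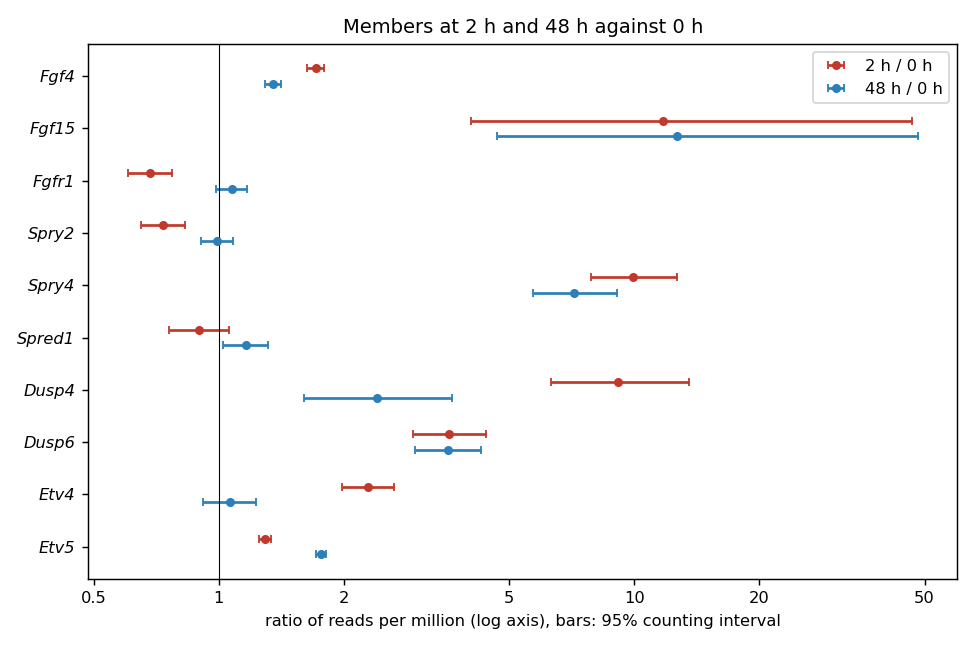
Ratio of depth-scaled reads at 2 h (red) and 48 h (blue) to 0 h on a log axis, for each member; points are single libraries and bars are 95% exact counting intervals, with no replicate error. Dusp4 and Etv4 are further from 1 at 2 h than at 48 h, Spry4 and Dusp6 have overlapping intervals at the 2 times, and Fgf15 rests on 4 reads at 0 h.

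Set against all genes, 5 of the 10 members were at least 2-fold above 0 h at 2 h (Fgf15, Spry4, Dusp4, Dusp6 and Etv4), where 4.69% of the 13404 genes with at least 10 reads in at least 3 libraries were; all 10 members met that filter. The same 5 were so at 4 h, against 5.14% of genes, and at 6 h, against 6.62%. At 14 h there were 3 (Spry4, Spred1 and Dusp6; background 7.44%), at 24 h 4 (Fgf15, Spry4, Spred1 and Dusp6; 6.47%) and at 48 h 4 (Fgf15, Spry4, Dusp4 and Dusp6; 15.7%). In none of the 6 later libraries was a member at least 2-fold below 0 h, against 11.4%, 3.76%, 4.48%, 9.33%, 10.9% and 16.3% of genes from 2 to 48 h. All 6 ratios share the same 0 h library. With the GC trend removed the members at least 2-fold above 0 h numbered 4 at 2 h (without Etv4; background 3.57%), the same 5 at 4 h (4.39%) and at 6 h (3.38%), and 4 at 14 h (Spry2, Spry4, Spred1 and Dusp6; 5.23%). At 24 h and at 48 h they were Fgf15, Spry4, Spred1 and Dusp6 (5.38% and 10.5%). Again 0 members were at least 2-fold below 0 h at any time, against 12.9%, 4.45%, 2.7%, 9.4%, 13% and 11% of genes from 2 to 48 h. Spry4 and Dusp6 were at least 2-fold above 0 h in all 6 later libraries, as were 0.768% of genes. For 4 members (Fgf15, Spry4, Dusp6 and Etv4) the 0 h library was the lowest of the 7, as it was for 13.5% of genes, and it was the highest for 0, against 20.8%. These positions are those of the deposited values: with the GC trend removed 0 h was not the lowest for Etv4 and was the highest for Fgfr1. The median log2 ratio at 2 h was 0.98 over the 10 members and -0.18 over all genes with reads; at 48 h it was 0.62 and -0.06.

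With 1 added to each value and a mean value of at least 1 required, 6 members could be read: Fgf4, Spry2, Spry4, Dusp6, Etv4 and Etv5. The other 4 lay under that mean, Fgfr1 just so at 0.999. Of the 6, Spry4 and Dusp6 had a log2 ratio of at least 1 at 2 h, against 1.88% of 6424 genes, and Spry4, Dusp6 and Etv4 at 6 h, against 2.48%. At 4, 14, 24 and 48 h Spry4 and Dusp6 were again past this fold, against 1.21%, 2.23%, 2.26% and 7.91% of genes. At no time was one of the 6 at -1 or below, where 1.2%, 0.374%, 0.763%, 1.98%, 1.65% and 5.39% of genes were from 2 to 48 h. On this scale, removing the GC trend took Dusp6 at 24 h from 1.08 to 0.98 and Etv4 at 6 h from 1.19 to 0.67, both under the fold. It took Spry2 at 14 h from 0.91 to 1.05, past the fold. With no pseudocount and the GC trend removed, Dusp6 at 24 h (1.265) and Etv4 at 6 h (1.07) stayed past the fold. Adding 1 compresses low values such as those of Etv4, and the subtracted trend is not compressed.

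The trend of log2 value with log2 of hours plus 1 was fitted by limma over the 7 libraries for all 6424 genes, of which 0.296% rose and 0.0623% fell at an adjusted p under 0.05. Of the 6 members tested, 0 passed in either direction; 3 had an unadjusted p under 0.05 (Spry4, Dusp6 and Etv5), all with a positive change, as did 11.6% of genes; 9.92% had such a p with a negative change. By limma the fitted change over 0 to 48 h was 1.196 ± 0.51 (SE, log2) for Spry4 (adjusted p = 0.213), 0.99 ± 0.43 for Dusp6 (adjusted p = 0.220) and 0.68 ± 0.26 for Etv5 (adjusted p = 0.180). It was 0.30 ± 0.45 for Spry2 (adjusted p = 0.714) and -0.11 ± 0.44 for Etv4 (adjusted p = 0.903); with the GC trend removed these were 0.54 and -0.71, and that of Fgf4 was -0.20. For Spry4 and Dusp6 the slope rests on the 0 h library, without which it was -0.05 and -0.04. The median change of the 6 was 0.49, and that of all genes 0.0053. A limma-voom fit on the recovered reads tested all 10 members and called 0, with 2.21% of its 13404 genes rising and 0.776% falling; the lowest adjusted p of a member was 0.128, for Etv5. At an unadjusted p under 0.05 it gave the same 3 members (Spry4, Dusp6 and Etv5), all positive, against 12.1% of genes positive and 11.4% negative. In that fit Spred1 had a change of 0.91 ± 0.49 (SE; adjusted p = 0.283; 0.57 without 24 h and 1.69 without 48 h) and Dusp4 of -0.36 ± 1.14 (adjusted p = 0.866).

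**Figure D4:**
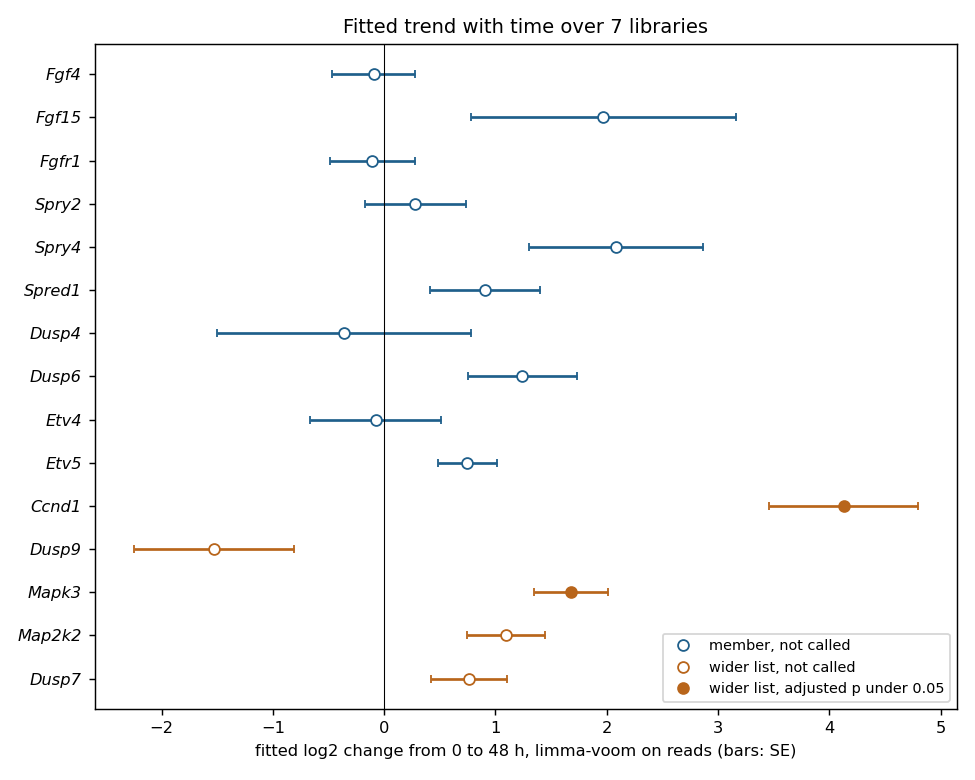
Fitted log2 change from 0 to 48 h by limma-voom on recovered reads for the 10 members (blue) and 5 genes of the wider pathway list (orange); points are fitted values over 7 libraries, bars are standard errors, and filled points passed an adjusted p under 0.05. All 10 members are open points, and Ccnd1 and Mapk3 are filled.

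Because the values at 0 h stood apart, a comparison of the 0 h library with the 6 later ones was added after seeing the data. It called 0 of 6424 genes (0% in each direction) by limma, and 0 of 13404 on reads; at an unadjusted p under 0.05, 222 genes were higher and 164 lower in the later libraries by limma (3.46% and 2.55%), and 319 and 545 on reads (2.38% and 4.07%). Spry4 and Dusp6 were among the higher genes in both. The later libraries exceeded 0 h by 1.60 ± 0.28 (SE, log2 with 1 added; adjusted p = 0.379) in Spry4 and by 1.32 ± 0.25 (adjusted p = 0.379) in Dusp6. Since the comparison was chosen because the 0 h values of such genes stood apart, its p-values give no support to that difference. The difference was 0.67 ± 0.35 in Etv4 (adjusted p = 0.773), 0.35 ± 0.30 in Etv5 (adjusted p = 0.804), 0.22 ± 0.36 in Fgf4 (adjusted p = 0.890) and -0.02 ± 0.43 in Spry2 (adjusted p = 0.9951). These 4 differences without the GC trend were 0.29, 0.22, 0.13 and 0.0868. With 1 library on the 0 h side, a property of that library and a property of its time point cannot be told apart.

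The members did not share 1 profile. Taking log2 values with 1 added over the 7 libraries, the Pearson correlation of a feedback member with the mean standardised profile of the other 6 was 0.95 for Spry4 and 0.86 for Dusp6. It was 0.27 for Etv5, 0.22 for Etv4, 0.17 for Spred1, -0.002 for Spry2 and -0.006 for Dusp4. These are descriptions over 7 libraries of unequal depth and GC bias. Among 2414 other genes with a mean of at least 5, the profiles most like the mean of the 7 feedback members were those of Tpi1 (0.96), a glycolytic enzyme, Wdr74 (0.95), H3c6 (0.95), a replication-dependent histone gene, Atic (0.95), an enzyme of purine synthesis, and Gcat (0.94), an enzyme of threonine breakdown. In the deposited values each of these was lowest at 0 h, as were 13.5% of genes with reads. Tpi1 was at 54.3 there against 91.0 to 121 later. These genes were picked for likeness to a mean that includes Spry4 and Dusp6, both lowest at 0 h. Their own low 0 h values therefore give no separate support.

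The wider pathway list held 58 other genes, of which 29 were tested by limma and 53 on reads. By limma 0 of 29 passed in either direction, with 4 positive and 4 negative at an unadjusted p under 0.05, where 11.6% and 9.92% of all genes were. On reads 5 of 53 rose and 0 fell, against 2.21% and 0.776% of all genes: Ccnd1, Mapk3, Spred3, Fgf17 and Fgfr2, the last 3 named after their values were seen. The fit on reads was not run with the GC trend removed. Without that trend the log2 ratio at 48 h was 0.95 in place of 1.52 for Spred3. For Fgfr2, on about 41 reads at 0 h, it was 2.10 in place of 2.51. The median change on reads was 0.09 over the list and -0.05 over all genes.

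Of the kinases, Mapk3 (ERK1) stood at 6.36, 8.86, 7.78, 12.1, 12.4, 12.7 and 23.2 in label order. Its fitted change was 1.52 ± 0.30 (SE; adjusted p = 0.056 by limma), and 1.68 on reads (adjusted p = 0.026 by limma-voom). Map2k2 (MEK2) had its lowest value in the first library (3.12) and its highest, 7.35 and 7.39, in those of 14 and 48 h (fitted change 0.90, adjusted p = 0.149 by limma). With the GC trend removed the fitted change was 0.98 for Mapk3 and 0.22 for Map2k2, whose ratio to 0 h then turned negative at 6 h (-0.18). Ccnd1, cyclin D1, a G1 cyclin downstream of ERK, was 2.10, 12.3, 6.82, 6.31, 8.82, 34.6 and 48.7 in label order. It had a first high point at 2 h, as Spry4, Dusp4, Dusp6 and Fgf15 did, and a second and larger one at 48 h. Its fitted change was 3.57 ± 0.65 (adjusted p = 0.052 by limma), and 4.13 on reads (adjusted p = 0.011 by limma-voom).

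Dusp9 and Dusp7, other phosphatases of the group, each shared part of the course of Dusp4 or Dusp6. Dusp9, an ERK phosphatase of naive stem cells, was 6.10 at 0 h, between 11.2 and 13.2 from 2 to 6 h, then 4.18, 2.42 and 3.28 at 14, 24 and 48 h (fitted change -1.57, adjusted p = 0.202 by limma). Its high values lay in the same 3 libraries as those of Dusp4. Dusp7 was lowest at 0 h (3.91) and highest at 48 h (7.998; fitted change 0.62, adjusted p = 0.239 by limma). With the GC trend removed its fitted change was 0.0856 and its highest ratio to 0 h was that of 24 h (0.62), with 14 h level with 0 h (0.0081).

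At 2 h, 10 of the 53 list genes were at least 2-fold above 0 h and 1 at least 2-fold below it, against 4.69% and 11.4% of genes. Counts above and below were 10 and 2 at 4 h, against 5.14% and 3.76% of all genes, and 8 and 2 at 6 h (6.62% and 4.48%). At 14 h they were 9 and 6 (7.44% and 9.33%). At 24 h they were 8 and 7 (6.47% and 10.9%), and at 48 h 14 and 6 (15.7% and 16.3%). The 10 at 2 h were Ccnd1, Dusp9, Spry1, Dusp5, Egr1, Ier2, Myc, Fgf3, Fgf5 and Fgf17, and the single lower gene was Klb; they were named after their values were seen. Spry1, another Sprouty, was 1.17 at 0 h and 5.51 at 2 h, then 2.29 to 3.78. Myc was 0.0535 at 0 h, on about 4 reads, and between 0.699 and 1.16 later. Fgf17, a ligand of the Fgf8 subfamily, was 0.0222, 0.736, 0.422, 0.277, 0.326, 1.23 and 2.15 in label order. The first of these values rests on about 2 reads. Like Fgf15, Fgf17 had a first high point at 2 h and its highest value at 48 h. Unlike Fgf15, Fgf17 already stood above its 2 h value in the library labelled 24 h. Fgf5, a ligand of the formative epiblast, had its lowest value in the first library (0.0353) and its highest in that of 2 h (0.414), on 72 reads or fewer. With the GC trend removed 8 of the 10 stayed past the fold at 2 h, without Dusp9 (0.80) and Ier2 (0.90), against 3.57% of all genes. Counts above 0 h were then 10 at 4 h (4.39%), 5 at 6 h (3.38%) and 6 at 14 h (5.23%). They were 8 at 24 h (5.38%) and 9 at 48 h (10.5%). Counts below it were 1 at 2 h (12.9%), 2 at 4 h (4.45%) and 1 at 6 h (2.7%). They were 8 at 14 h (9.4%), 8 at 24 h (13%) and 6 at 48 h (11%). Depth and the marker sums given above differed between the 0 and 2 h libraries as well, and their part in these ratios was not tested.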

How the data were processed

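Messenger RNA was sequenced from 1 library per time point (RNeasy RNA, Lexogen SENSE libraries), per the labels' protocols. The submitters' processing notes name Bowtie2 and the build mm9; for the counting step, strand setting and annotation, the sources used here give nothing. The authors deposited 1 normalized value (signal) per transcript and library, with no unit in the header. Multiplied by genomic span and a library factor, 91.3% to 93.7% of low values came within 0.1 of a whole read, which gave the reads and a depth of 7.04 to 16.1 M reads. Spans and GC content came from GRCm38 annotation, so reads are approximate.

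Of 30673 rows, 3320 start-site rows were at 0 and 695 were further placements; symbols were matched by RefSeq transcript for 26354 rows. Trends were tested with limma 3.58.1 in R 4.3.3 (empirical Bayes with a mean-variance trend) on log2 of the value plus 1, with 5 residual degrees of freedom, over 6424 genes with a mean of at least 1, with calls at an adjusted p (Benjamini-Hochberg) under 0.05. As an alternative, limma-voom was run on recovered reads (at least 10 in at least 3 libraries). The members, lists and tests were chosen with earlier results of these data known. All 10 members were named, with the 5 largest changes of the wider list at a mean of at least 5, and the 5 most similar profiles. The tests were checked on simulated data. The simulation covered the limma fits, with independent noise of equal size in all genes, and held no GC bias or difference in depth. The comparison of 0 h with later libraries was added after seeing the data. The libraries are taken as independent points, and no time point has a replicate. The alternatives tried were pseudocounts 0.1 and 5, no filter, 2 normalizations, 2 codings of time, removal of GC trends (spline with 5 degrees of freedom over 2459 genes), summed rows, reads, and each library left out. For ratios of members with a mean under 1, the GC trend was removed only on the scale with no pseudocount, since with 1 added their values are compressed and the subtracted trend is not.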

Additional observations from a re-analysis of the deposited data

How the results depend on the processing

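No member was called under any trend setting or in the comparison of 0 h with later libraries. With single libraries left out, the count of called members ranged from 0 to 0. In the comparison of 0 h with later libraries only the 6 later ones were left out in turn. That was done by limma alone, which tested 6 members. Over all trend fits the adjusted p of a member was 0.081 or more. Of the fitted changes, that of Fgf4 turned positive with time in hours (0.0256), and without single libraries it ranged from -0.55 to 0.13; those of Spry4 (-0.0503 to 1.82), Dusp6 (-0.0362 to 1.28) and Etv4 (-1.18 to 0.49), and on reads those of Fgfr1 (-0.63 to 0.25) and Dusp4 (-4.01 to 0.20), also took both signs, while those of Fgf15 (0.41 to 2.87) and Spred1 (0.57 to 1.69) on reads did not. The difference of Spry2 between later libraries and 0 h was 0.0868 with the GC trend removed and ranged from -0.20 to 0.0625 without single libraries. Called genes of the wider list numbered 1 with pseudocount 0.1 or summed rows, 2 with time in hours or as 2 classes, 5 on reads, and 0 to 1 without single libraries. Over all genes, 19 rose and 4 fell; 162 and 28 did with time in hours, 22 and 26 as 2 classes, 36 and 7 with pseudocount 0.1, 296 and 104 on reads, 28 and 8 with summed rows, 0 and 0 with pseudocount 5, with no filter or with the GC trend removed, and 1 to 52 and 0 to 24 without single libraries (52 and 24 without 0 h, 7 and 2 without 2 h, 1 and 0 without 4 h or 24 h, 1 and 1 without 48 h). With 1 added, ratios of the 6 members tested that were at least 2-fold above 0 h numbered 13 over the 6 later libraries. Per library 1.21% to 7.91% of all genes were so. The members' ratios numbered 11 over the libraries of 4 to 48 h, where 2 were so against the mean of 0 and 2 h. With no pseudocount over genes with reads, where all 10 members were read, they numbered 26, and 26 with the GC trend removed as well. Per library 4.69% to 15.7% and 3.38% to 10.5% of all genes were so. Both were chosen after seeing the data. The 13 and the 26 rest on different sets of members, and each counts the same genes repeatedly against 1 library. No paired analysis was possible because each time point has 1 library. The causes of these shifts were not tested.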
